A study of Rattus norvegicus with 6 samples.

Results

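Messenger RNA of 6 genes that are widely used as references for expression measurements was followed through a circular RNA (circRNA) experiment in rat lung. The genes were Actb, B2m, Hsp90ab1, Rplp1, Rpl13a and Gusb. They were chosen by the names of their array probes, each printed in 10 spots per array, and make up 6 of the 62 linear transcript probes among 14227 non-control probes, of which 14145 measure circRNAs. There were 6 one-colour arrays of lung from male rats of 6 weeks, 3 from rats kept in 10% oxygen for 21 days (hypoxia) and 3 from rats kept in normoxia for as long. In both groups the lungs were perfused with buffered saline, and total RNA was digested with RNase R before random-primed labelling with Cy3. The labels number the samples of a group without stating that separate animals gave them, so a p-value here weighs a difference only against the spread among these samples. Hypoxia of this length is used to model pulmonary arterial hypertension. The exposure acts on the whole animal, and the labels name no strain.

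RNase R is an exonuclease that degrades RNA from a free 3′ end and spares closed circles, so a linear messenger RNA is expected to be lost and a circRNA to be kept. The signal of a linear probe is therefore one read after the digestion, and in it the amount in the tissue and the completeness of the digestion cannot be told apart. No undigested sample was among the arrays and the probe sequences were not known. Signal from RNA other than the linear transcript therefore cannot be told apart either. Reference genes are picked because their messenger RNA is abundant and varies little between conditions in many tissues. Hsp90ab1 encodes the constitutive cytosolic form of the chaperone HSP90. Actb encodes cytoplasmic beta-actin, B2m the light chain of class I major histocompatibility molecules, Rplp1 and Rpl13a proteins of the large ribosomal subunit, and Gusb the lysosomal enzyme beta-glucuronidase.

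Because the exposure was low oxygen, the RefSeq start-site windows of these genes (assembly GRCr8, 250 bases before the annotated start to 50 after) were searched on both strands for ACGTG, a core bound by hypoxia-inducible factors. Of the 6 genes, 5 had a window and 2 windows held the motif, against 19.3% of 33469 windows over the genome. Those of Hsp90ab1 (chr9:22930173-22930472, plus strand) and Rpl13a (chr1:104748864-104749163, minus strand) are shown 5′ to 3′ with the matches in capitals, so that the letters can be read beside the oxygen differences given further on. The Hsp90ab1 match begins 7 bases before the start. The Rpl13a matches, 1 on each strand, overlap in a palindrome that begins 218 bases before the start. The windows of B2m, Rplp1 and Gusb held no match, and Actb had no window. A match is a run of letters, not a measured site.
Hsp90ab1: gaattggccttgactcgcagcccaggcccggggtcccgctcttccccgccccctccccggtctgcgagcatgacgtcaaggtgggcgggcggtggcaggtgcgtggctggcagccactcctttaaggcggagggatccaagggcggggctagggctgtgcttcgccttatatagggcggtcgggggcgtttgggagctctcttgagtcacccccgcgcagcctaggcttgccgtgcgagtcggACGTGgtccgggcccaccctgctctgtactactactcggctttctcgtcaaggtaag
Rpl13a: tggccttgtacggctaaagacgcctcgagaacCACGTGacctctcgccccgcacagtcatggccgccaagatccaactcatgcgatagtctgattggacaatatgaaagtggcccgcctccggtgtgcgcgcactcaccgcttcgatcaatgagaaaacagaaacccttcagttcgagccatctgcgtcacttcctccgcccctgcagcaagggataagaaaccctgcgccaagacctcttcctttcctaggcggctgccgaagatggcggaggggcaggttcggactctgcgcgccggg

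The probes of all 6 transcripts still gave a signal after the digestion. Each had 60 of its 60 spots well above background over the 6 arrays, the scanner software's flag for a signal clear of the local background. The probes belong to a set of 12, of which 10 were above background on all 6 arrays and 2 on none. Hprt1, which encodes a purine salvage enzyme and is another common reference gene, was 1 of these 2. Its log2 signal relative to the 75th percentile of the array lay between -5.83 and -5.03. The other of the 2 had no gene symbol. Among all 62 linear probes 27 were above background on every array and 24 on none, beside 10911 of the 14145 circRNA probes above background on every array. The 29 cell type markers looked for, of lung epithelium, endothelium, smooth muscle, leukocytes, red cells, heart and liver, had no probe that matched by symbol. The labelled tissue was therefore not checked against its markers.

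The members ranged from the brightest few percent of the circRNA signals down to their lower part. They did not reach the dim end, since a share of the circRNA probes was dimmer than every member on each array. Levels are given on a log2 scale, as the processed signal averaged over the 10 spots, less the array's 75th percentile, and positions as the percent of the 14145 circRNA probes of that array that were dimmer. The Hsp90ab1 probe was the brightest of the 27 linear probes above background on every array. It stood at 3.38, 3.60 and 3.91 on normoxia 1 to 3 and at 3.60, 3.57 and 3.75 on hypoxia 1 to 3. These are processed signals of 1066 to 2074, and between 97.4% and 98.6% of circRNA probes were dimmer, with 197 to 366 brighter. The hypoxia values all fell inside the normoxia range.

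The Actb probe was second among the linear probes, with 2.04, 2.87 and 2.81 on the normoxia arrays and 3.03, 2.97 and 2.94 on the hypoxia arrays. All 3 hypoxia arrays were above all 3 normoxia arrays, and normoxia 1 lay well below the other 5. Between 93.4% and 96.9% of circRNA probes were dimmer. The B2m probe ranked 5 of the 27 and had 1.16, 1.44 and 2.28 in normoxia and 1.73, 1.59 and 1.88 in hypoxia. The hypoxia arrays lay between the lower normoxia arrays and normoxia 3, and 87.6% to 94.5% of circRNA probes were dimmer.

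The 2 ribosomal protein transcripts were dimmer and moved differently. The Rpl13a probe had -0.03, -0.18 and 0.82 in normoxia and 0.21, -0.27 and 0.04 in hypoxia, so normoxia 3 was the high array and the other 5 lay close together. Its position ran from 69.9% to 84.7%. The Rplp1 probe had -2.20, -1.31 and -1.22 in normoxia and -1.63, -1.17 and -1.28 in hypoxia. Normoxia 1 was the low array here, and the position ran from 35.9% to 54.6%, around the middle of the circRNA probes.

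The Gusb probe was the dimmest member, 25 of the 27 linear probes, with -3.10, -3.08 and -2.83 in normoxia and -3.42, -3.14 and -3.18 in hypoxia. All 3 hypoxia arrays were below all 3 normoxia arrays, by a margin smaller than the spread within either group. Its processed signals were 11.9 to 20.3 after the software's own correction, where the median spot signals were 37.8 to 49 and the local backgrounds 17 to 20. Only 23.6%, 24.3%, 27.6%, 22%, 25.3% and 24.0% of circRNA probes were dimmer on the arrays in the same order.

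**Figure D1:**
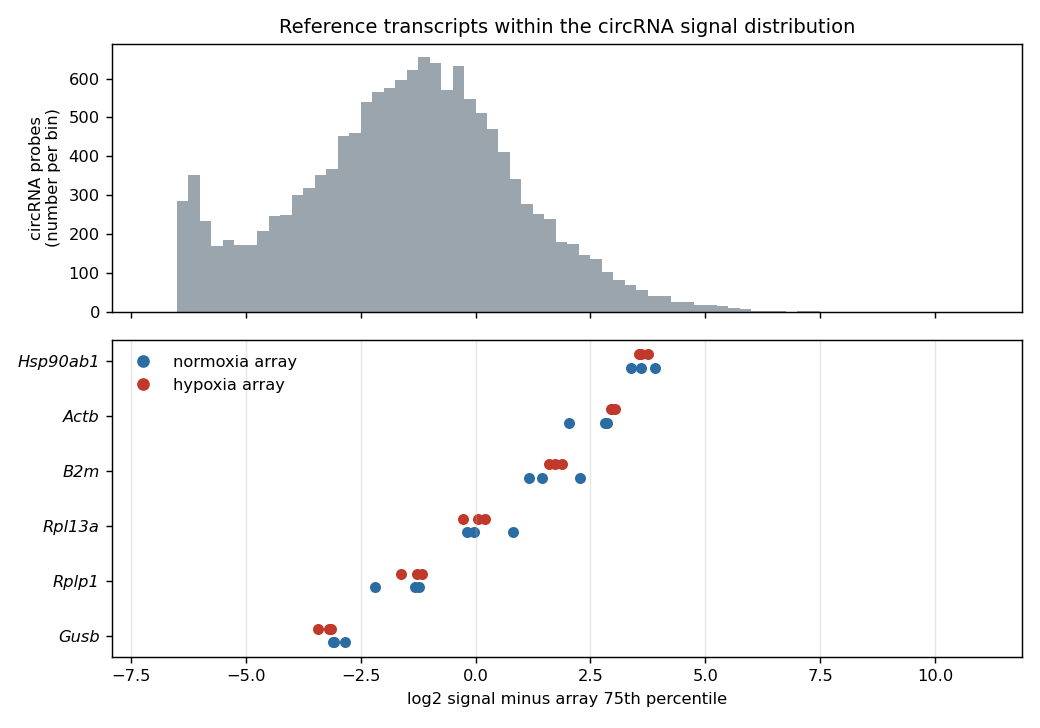
The upper panel counts the 14145 circRNA probes by their mean log2 signal over the 6 arrays, relative to each array's 75th percentile, and the lower panel marks each reference transcript on the same axis, 1 point per array in blue for normoxia and red for hypoxia. The Hsp90ab1 points lie in the upper tail between 3.38 and 3.91, the Rplp1 points near the middle and the Gusb points in the lower part between -3.42 and -2.83.

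The order Hsp90ab1, Actb, B2m, Rpl13a, Rplp1, Gusb was the same on every one of the 6 arrays. Neighbours in this order were 0.86 to 1.66 apart on the log2 scale on average. The ranges over arrays did not touch except for Actb and B2m, where the lowest Actb array (normoxia 1) was dimmer than the highest B2m array (normoxia 3). On each single array Actb was brighter than B2m, by 0.53 to 1.43. This is an order of probe signals and not of transcript abundance, since brightness also depends on the probe. A gap between probes of 1 gene can be seen for Ldha, a lactate dehydrogenase subunit with 2 probes. They differed by 2.50 to 3.18 on the log2 scale within an array, 7.04-fold on average, which is more than any of the neighbouring steps. The stretches these probes cover were not known, and the cause of the gap was not tested.

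None of the 6 transcripts passed the test of hypoxia against normoxia. The comparison asks whether the signal of their probes after RNase R differed with oxygen. In whole lung, fewer cells of a type cannot be told apart from less RNA per cell. It was made in a limma fit over 12062 probes, each clear of background on 3 or more arrays, with Benjamini-Hochberg adjustment over all of them at 0.05. In that fit 9 probes passed, 0.0746% of those tested, with 1 higher in hypoxia (0.00829%) and 8 lower (0.0663%), so a count of 0 of 6 is near the background. With the replicate number as a block (processing section) 382 passed, 3.17%, and again 0 of the 6. At an unadjusted p under 0.05 the members' count was also 0, where 14.2% of all probes had one.

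The 4 positive estimates were those of Actb, Rplp1, B2m and Hsp90ab1. Actb went from 2.57 ± 0.47 in normoxia to 2.98 ± 0.04 in hypoxia (SD, n = 3), a difference of 0.41 (SE 0.25, limma adjusted p = 0.46), or 1.33-fold with a 95% interval from 0.883 to 1.997. The estimate rested partly on normoxia 1 and was 0.14 without that array. Rplp1 had -1.58 ± 0.54 and -1.36 ± 0.24 (SD, n = 3), a difference of 0.22 (SE 0.29, limma adjusted p = 0.73) that became -0.09 without normoxia 1. B2m had 1.63 ± 0.58 and 1.73 ± 0.15 (SD, n = 3), a difference of 0.11 (SE 0.30, limma adjusted p = 0.88), which became -0.13 without normoxia 1 and 0.43 without normoxia 3.

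Hsp90ab1 showed the smallest difference of the 6, with 3.63 ± 0.27 in normoxia and 3.64 ± 0.10 in hypoxia (SD, n = 3). The estimate was 0.006 (SE 0.19, limma adjusted p = 0.99). Its 95% interval ran from 0.738-fold to 1.37-fold, and its sign turned under several settings, quantile normalization among them (-0.098). The interval for B2m was 0.659-fold to 1.76-fold and that for Rplp1 0.719-fold to 1.88-fold, so changes of up to those sizes lay within the error for each of these genes.

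The 2 negative estimates were those of Rpl13a and Gusb. Rpl13a had 0.20 ± 0.54 in normoxia and -0.01 ± 0.24 in hypoxia (SD, n = 3), a difference of -0.21 (SE 0.30, limma adjusted p = 0.74) and 0.865-fold with an interval from 0.532 to 1.41. Without normoxia 3 it was 0.10. Gusb had -3.003 ± 0.15 and -3.25 ± 0.15 (SD, n = 3), a difference of -0.24 (SE 0.17, limma adjusted p = 0.51) and 0.845-fold with an interval from 0.640 to 1.12. Normexp background correction was run on spot medians in place of the processed signals. It takes off the local background and then models what remains of it. With an offset of 50 it gave a Gusb estimate of 0.19. Under limma array weights both passed, Rpl13a at -0.68 (limma adjusted p = 0.020) and Gusb at -0.34 (limma adjusted p = 0.029). Those weights were 5.05 for normoxia 3, 6.27 for hypoxia 3 and 0.294 to 0.610 for the other 4 arrays, so that fit rested largely on 1 array per group, and 5021 of all 12062 probes passed it.

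The members' differences were of the size seen over all probes. Their median estimate was 0.056, beside 0.034 for the 34 linear probes tested and -0.020 for all 12062 probes. Their median size without sign was 0.21, beside 0.24 and 0.27. Actb and Gusb, 2 of the 6, had arrays that did not overlap between the groups, as did 20.5% of all probes. The direction depended on the scale: with no scaling between arrays all 6 estimates were positive, from 0.11 to 0.76, where the median of all probes was 0.34. When the arrays were set instead on the median of the 27 linear probes, 4 were positive, Actb at 0.52 among them, and 2 negative, with none past the threshold.

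**Figure D2:**
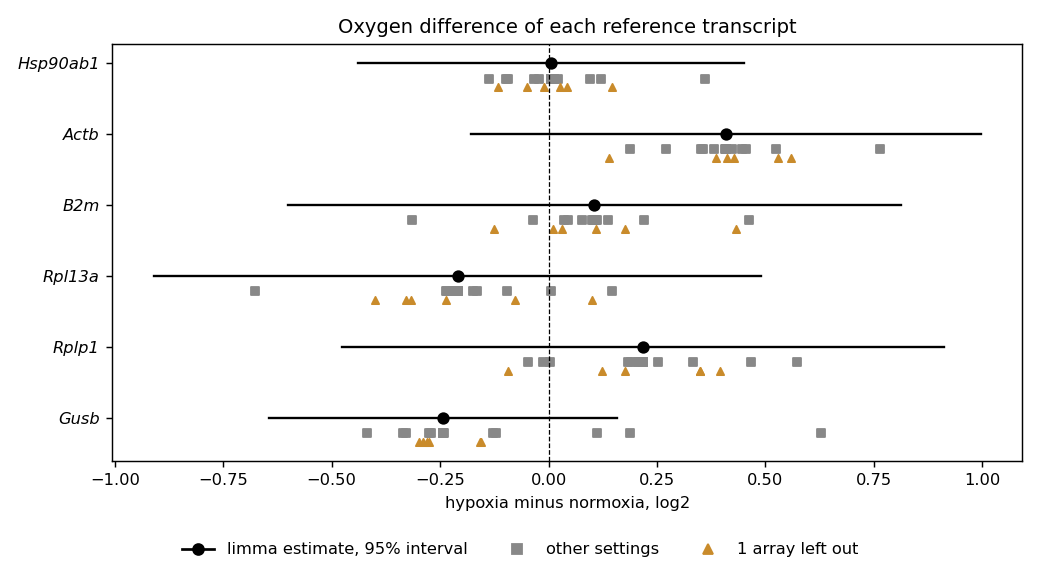
For each transcript the black point is the limma estimate of hypoxia minus normoxia on the log2 scale and the black line its 95% interval, grey squares are the estimates under other settings and orange triangles those with 1 array left out. All 6 intervals include 0, and the Actb estimates are the ones that stay above 0 under every setting run, from 0.14 to 0.76.

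For 5 of the 6 transcripts the spots of an array lay closer together than the means of the 6 arrays did. The SD over the 10 spots of an array averaged 0.066 for Actb, 0.056 for B2m, 0.085 for Rpl13a and 0.091 for Rplp1, and the SD of the array means over all 6 arrays was 4.31 to 6.93 times as large in these 4. For Hsp90ab1 the spot SD averaged 0.084 and the ratio was 2.13. Within the hypoxia group alone the arrays were closer: the Actb means had an SD of 0.04, below the spot SD of that probe, and the Hsp90ab1 means 0.10, near it. The hypoxia SDs of B2m (0.15), Rpl13a (0.24) and Rplp1 (0.24) stayed above the spot SDs of those probes. Gusb was the exception, with a mean spot SD of 0.26, reaching 0.41 on hypoxia 3, and an SD over arrays of 0.19, 0.727 times its spot SD. Of the 60 Gusb spots 4 carried an outlier flag, all 4 on hypoxia arrays, and without flagged spots the estimate was -0.33. Spots are repeats of one labelled sample and were not used as replicates.

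**Figure D3:**
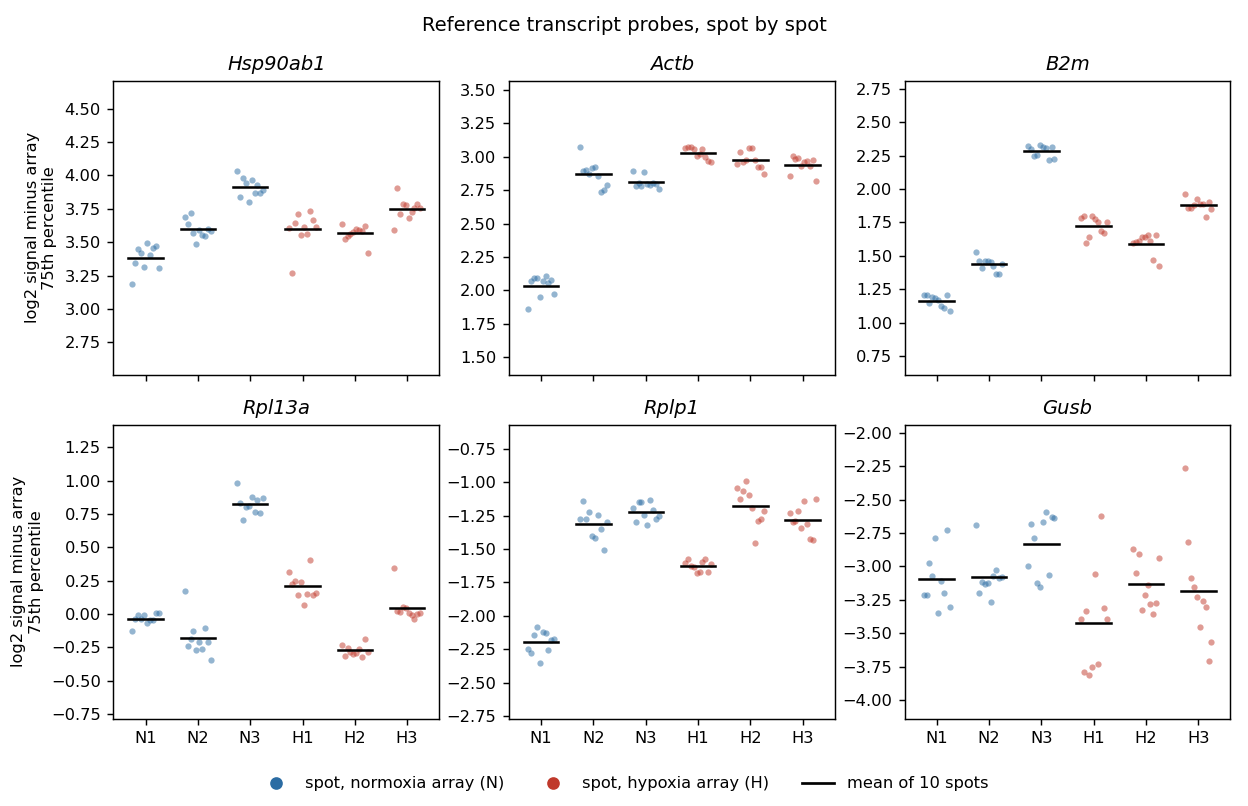
Each panel shows 1 transcript, with the 10 spots of each normoxia array (N1 to N3, blue) and hypoxia array (H1 to H3, red) and a black bar at their mean, as log2 signal minus the array's 75th percentile on an axis of the same length in every panel. Normoxia 1 is low for Actb (2.04) and Rplp1 (-2.20), normoxia 3 is high for B2m (2.28) and Rpl13a (0.82), and the Gusb spots scatter more than the arrays differ.

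The normoxia arrays differed more among themselves than the hypoxia arrays did. The SD over 3 arrays was larger in normoxia for 5 of the 6 members, all but Gusb, and for 62.0% of all 12062 probes. For Actb it was 0.47 against 0.04 and for B2m 0.58 against 0.15. The within-group SD, pooled over both groups, was 0.15 for Gusb and 0.20 for Hsp90ab1, lower than that of most probes, and 0.33 to 0.43 for the other 4, beside a median of 0.28 for all probes. B2m, Rpl13a and Rplp1 were thus more variable than 77.3% to 78.4% of the probes tested. The low spread of Gusb, a dim probe, depended on the processing. The SE of its oxygen difference, 0.17 in the main fit, was 0.32 under normexp with an offset of 50 and 0.62 with no offset. Normoxia 1 was the single array to which the multiplicative part of the scanner software's detrending had not been applied, per the file headers, and was the dimmest array for the control probe eQC-41 (log2 signal 5.48, beside 8.14 to 11.1 on the others). Normoxia 3 had the lowest 75th percentile (92.6, beside 102.1 to 171.4) and the fewest circRNA probes above background (11287, beside 11700 to 12266). Whether these measures bear on the members' values was not tested.

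Ratios between 2 members cancel the scaling of an array. Their spread over the 6 arrays is small where both members vary little or where they vary together. Over the 15 pairs the SD of the log2 ratio ran from 0.19 to 0.53, with a median of 0.32. The smallest SD was that of Hsp90ab1 and Gusb (0.19), but neither member alone varied more than that (0.18 and 0.19). It rose to 0.57 under normexp with an offset of 50 and to 1.07 with none. Actb and Rplp1 came next (0.21), below the SD of either alone (0.37 and 0.39). Both were low on normoxia 1, and their log2 ratio stayed between 4.03 and 4.65. B2m and Hsp90ab1 had 0.22. B2m and Rpl13a, both high on normoxia 3, had 0.25, again below either alone (0.38 and 0.39). The widest pairs were Actb and Rpl13a (0.53), Rplp1 and Rpl13a (0.52), which encode proteins of the same ribosomal subunit, and Actb and Gusb (0.46). Averaged over its 5 pairs, Hsp90ab1 had the smallest spread (0.26), then B2m (0.30), and Rpl13a the largest (0.39).

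The log2 ratio of Actb to Gusb was 5.13, 5.95 and 5.65 in normoxia and 6.45, 6.11 and 6.13 in hypoxia, 0.65 higher on average. It was higher on each hypoxia array than on any normoxia array. The difference fell to 0.16 under normexp with an offset of 50, turned to -0.36 with no offset and was 0.43 without normoxia 1. The ratio of Rplp1 to Gusb was 0.46 higher, also without overlap. It was -0.0056 under normexp with the offset, -0.16 with none and 0.20 without normoxia 1. The other 13 of the 15 pairs overlapped. Of single probes 20.5% were without overlap, but no such share was computed for ratios of probes. Both ratios without overlap hold Gusb, whose own arrays did not overlap between the groups. The 15 ratios share members and were not tested.

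**Figure D4:**
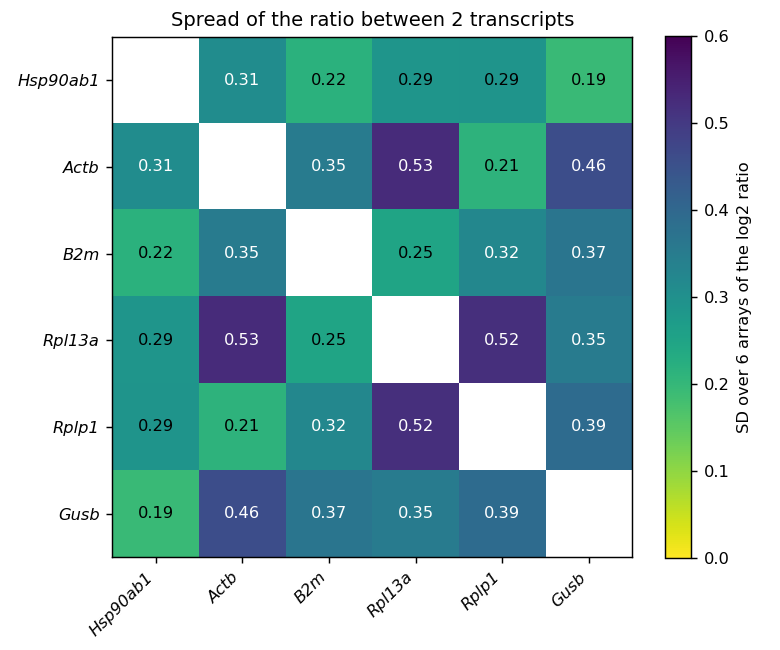
Each cell gives the SD over the 6 arrays of the log2 ratio between the transcripts of its row and column, printed in the cell and coloured from yellow (0) to dark purple (0.6). The lowest value is that of Hsp90ab1 with Gusb (0.19, but 0.57 under normexp with an offset of 50) and the highest that of Actb with Rpl13a (0.53).

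A list of 34 common reference genes had 11 with a probe on the array, the 6 members included, and 10 were tested through 11 probes. None of the 11 probes passed (limma adjusted p from 0.34 to 0.99), 7 estimates were positive and 4 negative, and the median was 0.062. Of the 5 probes that were not members', Sdha, a subunit of succinate dehydrogenase, had -0.10, Pgk1, phosphoglycerate kinase of glycolysis, 0.14, and the Ldha probes 0.06 and 0.31. Pop7, a subunit of ribonuclease P, had -0.62 (SE 0.25, limma adjusted p = 0.34). It was the single one of the 11 with an unadjusted limma p under 0.05, which 14.2% of all probes had. Its probe stood clear of background on all 3 normoxia arrays but on 1 of 3 in hypoxia. Part of its hypoxia values is thus background.

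Among the 22 other named linear probes tested, the one whose log2 ratio to a member had the smallest SD over the 6 arrays was looked up for each member. For B2m it was Hsp90ab1 (0.22) and for Rpl13a it was B2m (0.25), both members themselves. For Gusb it was Med16, a subunit of the Mediator complex (0.11), with -0.66, -0.88 and -0.72 in normoxia and -1.09, -0.91 and -0.94 in hypoxia. For Actb (0.19) and Rplp1 (0.19) it was Nlrp3, an inflammasome sensor, and for Hsp90ab1 (0.19) Map2, a microtubule-associated protein. The Nlrp3 and Map2 probes were each above background on 3 of the 6 arrays, so part of their values is background, and the next in order were Rplp1 for Actb (0.21), Actb for Rplp1 (0.21) and a probe of Ldha for Hsp90ab1 (0.19). The Gusb probe is dim, with a mean spot SD of 0.26, and its ratio to Med16 was not computed under normexp.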

How the data were processed

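Per the file headers, Agilent Feature Extraction 11.0.1.1 (build rn4) made the deposited intensity values, with background subtraction and detrending within an array and no normalization across arrays. That software also set the 0 or 1 flags for outlying spots and for spots above background. In the submitters' processing notes limma is listed too, without its role. The deposited log2 values of the series were not used here. Each member's 10 spots were averaged as log2 processed signal minus the array's 75th percentile over non-control spots. A probe was tested if a share of 0.5 or more of its spots was flagged as clear of background on 3 or more arrays. Tests were two-sided, in limma 3.58.1 under R 4.3.3, without a block, over circRNA and linear probes together, and the script was tested on simulated data. Plots were drawn with matplotlib 3.10.9. Probe accessions were matched to RefSeq symbols without versions, and 39 of 62 matched. No non-control spot was saturated, and precision is limited by the number of arrays.

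The members and lists were chosen with earlier results of these data known. Genes to name were the members, probes of the reference list, and for each member the named linear probe with the smallest SD of the log2 ratio. Same-numbered arrays had deviations from their group means that correlated by 0.55, 0.71 and 0.21 over the probes tested. Every pair exceeded 0.1, so a fit with the number as a block is given beside the unblocked one. All estimates, errors and p-values are from the unblocked fit unless the block is named. The pairing comes from the values and not from a stated design.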

Additional observations from a re-analysis of the deposited data

How the results depend on the processing

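Normexp without an offset was added after the data had been seen, and the other alternatives were planned. Of the 6 oxygen differences Actb alone kept its sign under all 21 alternatives (0.14 to 0.76). Some of these cannot move an estimate. The settings that change only which probes are fitted, and the replicate block, left Actb at 0.41. Estimates of the other sign were as follows, and the cause was not tested. Under normexp with an offset of 50, Gusb had 0.19, and with no offset Gusb 0.63, B2m -0.037 and Hsp90ab1 -0.094. Hsp90ab1 had -0.098 with quantile normalization and -0.022 with the percentile over detected probes. With no scaling Rpl13a had 0.15 and Gusb 0.11. With array weights B2m had -0.32, Hsp90ab1 -0.14 and Rplp1 -0.012, and 2 members passed instead of 0 (Rpl13a -0.68, Gusb -0.34). With the row of the slide as a block, where row 2 held hypoxia arrays only and the estimate rests on hypoxia 1, Hsp90ab1 had -0.034, Rplp1 -0.048 and Rpl13a 0.0055. With 1 array left out the ranges were 0.14 to 0.56 for Actb, -0.13 to 0.43 for B2m, -0.12 to 0.15 for Hsp90ab1, -0.093 to 0.39 for Rplp1, -0.40 to 0.10 for Rpl13a and -0.30 to -0.16 for Gusb, and 0 of the 6 passed in any. The replicate block changed no member's call (limma adjusted p from 0.26 to 0.98). The 9 probes called among all numbered 1 under normexp with the offset, 0 with no offset, 2 of 34 when linear probes were fitted alone, 382 with the replicate block, 5021 with array weights, and 3 (without normoxia 3) to 31 (without normoxia 2) with 1 array left out. The normexp settings moved the median of all probes to 0.10 with the offset and 0.22 without. Positions were kept within 1 SD over arrays except among the 10911 circRNA probes above background on all arrays, a set without the dimmest probes, where they were 88.0% for B2m, 97.4% for Hsp90ab1, 33.8% for Rplp1, 67.7% for Rpl13a and 4.34% for Gusb. The SD of the Hsp90ab1 to Gusb ratio, 0.19, was 0.57 with normexp at an offset of 50 and 1.07 at none. For Gusb the signal over background limits what can be said.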
